A study of Auxenochlorella pyrenoidosa with 18 samples.

Results

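Long internal coding exons are described here in FACHB-9, a strain of the green microalga Auxenochlorella pyrenoidosa: coding segments of 500 bases or more that have another coding segment on either side in the same transcript. Taking the transcript with the most coding bases for each gene, the rule found 1873 such exons in 1397 genes, out of 74992 internal coding exons, 95419 coding segments and 10284 gene models. They are set against the 63987 internal coding exons of 31 to 200 bases. The series holds 18 messenger RNA libraries of whole cells, 3 in each of 6 groups: heterotrophic cells, grown with glucose and urea, at 0, 24 and 72 h, and cells moved to the light after the glucose was used up, at 2, 8 and 24 h. The models belong to the alga and to no library, so no group is compared here. Depth per library is unknown here, and so is whether a long exon was covered by reads.

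In a spliced gene the spliceosome removes the introns and joins the exons. Where introns are long it is thought to recognise splice sites in pairs across the exon, and where introns are short, in pairs across the intron, which sets less of a limit on exon length. The phase of an intron is its place within a codon: phase 0 lies between codons, phase 1 after the first base and phase 2 after the second. An internal exon with the same phase on both sides, a symmetric exon, has a length that is a multiple of 3, so it can be skipped or duplicated without shifting the reading frame. The models were predicted by AUGUSTUS, a program that infers genes from genome sequence. They carry identifiers and no gene names or products, and no sequence of the genome was used here, so no exon sequence is shown.

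Long internal exons were few in number and large in bases. They made up 2.50% of internal coding exons (95% Wilson interval 2.39 to 2.61%) but 14.1% of the internal coding bases and 10.6% of all coding bases. Their median length was 680 bases (95% interval of the median from the binomial distribution, 667 to 693), equal to 227 codons, against 100 bases in the comparison class. The lengths fell off without a break: 1252 exons reached 600 bases, 728 reached 750, 337 reached 1000, 88 reached 1500 and 27 reached 2000 bases. A length of 500 bases or more was slightly more frequent among first coding segments (2.95%, 299 of 10143, 95% Wilson interval 2.64 to 3.30%) and clearly more frequent among last ones (7.19%, 729 of 10143, 95% Wilson interval 6.70 to 7.71%). Of the 141 models whose coding sequence is a single segment, 51 reached 500 bases. These Wilson intervals cover counting error only and treat exons or models as independent.

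**Figure D1:**
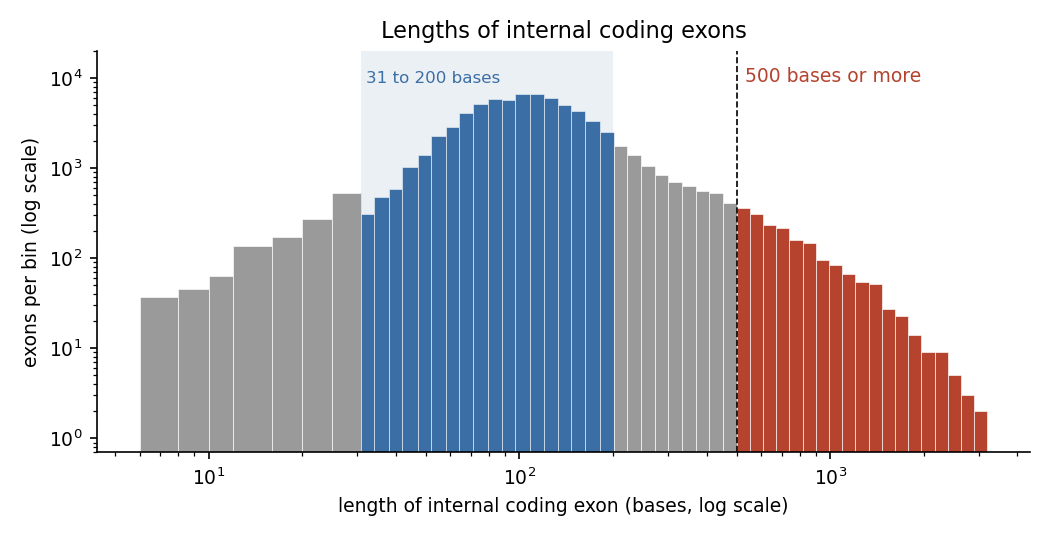
Number of internal coding exons (y axis, log scale) by exon length in bases (x axis, log scale), with the comparison class of 31 to 200 bases in blue and exons of 500 bases or more in red. The distribution peaks near the median of 107 bases and its upper tail runs through the 500 base threshold without a gap.

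The threshold marks no break in the lengths. Just inside it stood exons of 500 bases in g3202 (scaffold00366, bases 2437106 to 2437605, minus strand), g3262 (scaffold00366, bases 2793076 to 2793575, plus strand) and g3755 (scaffold00514, bases 260153 to 260652, minus strand), with scores of 0.06, 1 and 1. Just outside it, 1 base shorter, stood exons in g179 (scaffold00012, bases 853829 to 854327, minus strand), g6220 (scaffold00902, bases 7434 to 7932, minus strand) and g6780 (scaffold00992, bases 455435 to 455933, plus strand), with scores of 1, 0.98 and 1. In all, 100 internal exons measured 500 to 509 bases and 78 were up to 10 bases shorter than the threshold. Their median upstream introns were 190.5 and 185.5 bases, their median downstream introns 198 and 220.5 bases, and their mean scores 0.879 and 0.918. These differences were not tested.

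The longest members were single blocks of up to 1046 codons. The longest of all, with 3137 bases, was coding segment 32 of 64 in g5402 (scaffold00760, bases 37444 to 40580, minus strand). It had an intron of 155 bases before it and one of 176 bases after it, both scored 1, while the exon itself was scored 0.82. The next, with 3048 bases, was segment 47 of 74 in g1272 (scaffold00092, bases 1203116 to 1206163, minus strand), between phase 1 introns of 153 and 161 bases. Model g4526 held one of 2861 bases (scaffold00600, bases 325107 to 327967, minus strand) after an intron of 976 bases. Those of g2691 (2749 bases, scaffold00306, bases 11007 to 13755, minus strand), g7756 (2730 bases, scaffold01012, bases 2477298 to 2480027, minus strand), g3136 (2579 bases, scaffold00366, bases 2097004 to 2099582, plus strand) and g917 (2544 bases, scaffold00066, bases 769376 to 771919, minus strand) had scores of 0.99 or 1. By contrast the exon of 2616 bases in g3051 (scaffold00366, bases 1615383 to 1617998, plus strand) was scored 0.33, although its flanking introns were scored 1 and 0.74. All 8 models were complete, with a start and a stop codon.

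Most host genes held 1 long internal exon. Of the 1397 host genes, 1092 (78.2%) held 1 member, 206 held 2, 65 held 3, 22 held 4 and 12 held 5 or more. The 305 host genes with at least 2 members carried 781 of the 1873. Among genes with 1 internal exon 5.52% were hosts (45 of 815), rising to 14.3% of genes with 6 to 10 internal exons and 39.4% of genes with 21 or more (227 of 576) in a count that favours genes with more exons. Counted per exon the order was different: there were 55.2 members per 1000 internal exons in genes with 1 internal exon, 45.8 in genes with 2, and 22.4 to 26.4 in genes with more. Host genes had a median coding length of 2526 bases and 11 coding segments, against 961 bases and 7 segments in the other 8291 genes with an internal exon, a difference in length that the rule itself favours.

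The genes with the most members were large models of 31 to 79 coding segments. Model g1271 (scaffold00092, bases 1150116 to 1185049, minus strand) held 13 long internal exons of 617 to 1523 bases among its 57 coding segments, together 59.6% of its 23100 coding bases. Its neighbour g1272 (bases 1186646 to 1227739, minus strand) held 11, of 540 to 3048 bases, or 54.6% of its coding sequence. Model g5402 (bases 18156 to 58620) held 9, g9298 (scaffold01211, bases 1194033 to 1219157, plus strand) held 8 and g10133 (scaffold01327, bases 82027 to 97730, minus strand) held 7. A tie for the last place, g8127 (scaffold01094, bases 431772 to 465168, plus strand), also held 7, of 585 to 1472 bases. The scores of these exons were uneven: 11 of the 13 in g1271 reached 0.95, as did 4 of 11 in g1272, 4 of 9 in g5402, 2 of 8 in g9298, 1 of 7 in g10133 and 5 of 7 in g8127. In the first 5 of these models the other internal exons had median lengths between 108 bases in g10133 and 193 bases in g5402. The gene scores of these 5 models were low, at 0.01, 0.01, 0.03, 0.02 and 0.01 in the order named. The median gene score was 0.06 in host genes with at least 3 internal exons and 0.11 in other such genes.

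**Figure D2:**
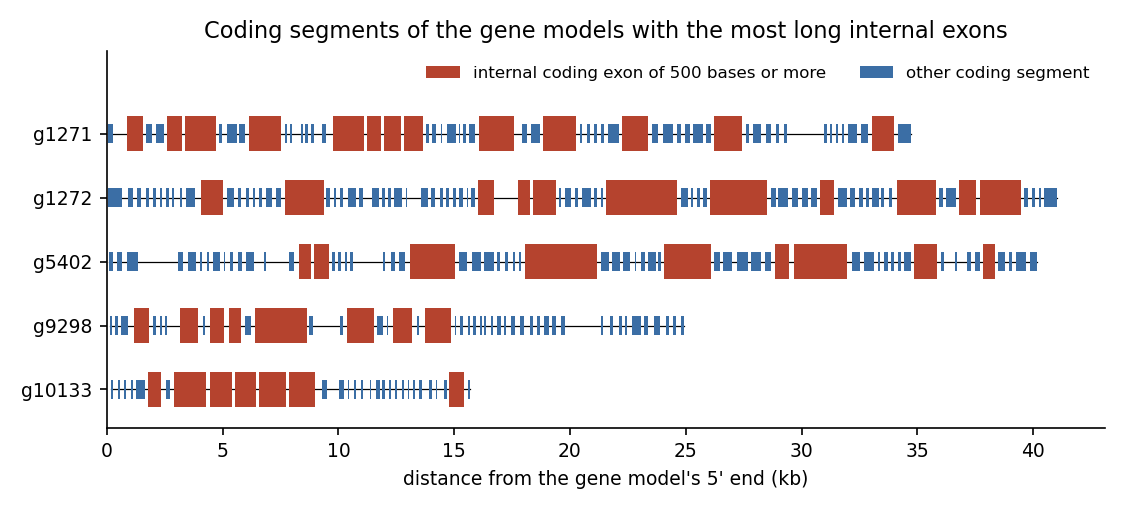
Coding segments of 5 gene models with the most long internal exons (g8127, with as many as g10133, is not drawn), drawn to scale from the 5' end of each model (x axis, kb; 1 row per gene), with members as tall red blocks, other coding segments as low blue blocks and the line spanning first to last coding base. Runs of consecutive members include segments 17 to 20 of g1271, 38 to 40 of g1272 and 8 to 12 of g10133, whose last member, segment 30, lies alone near the 3' end, and all 8 members of g9298 lie in segments 4 to 21 of 47.

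Long exons tended to have long exons as neighbours. The coding segment before a member had a median of 136 bases, against 105 before an exon of 31 to 200 bases, a ratio of geometric means of 1.40 (95% interval 1.33 to 1.47; least-squares fit with errors clustered by scaffold, Wald test, adjusted p = 7.52e-37 over 12 exon comparisons, n = 1873 members). The segment after a member had a median of 150 bases against 106, a ratio of 1.53 (1.47 to 1.59, adjusted p = 6.41e-83, n = 1873 members). The first ratio was above 1 on 25 and the second on 26 of the 26 scaffolds with at least 20 members. A segment of 500 bases or more stood before 10.4% and after 12.5% of members, against 1.91% and 2.36% in the comparison class. There were 171 pairs of consecutive members, in 138 genes. In genes that hold both classes the ratios were 0.955 (0.901 to 1.01, adjusted p = 0.230) and 0.976 (0.935 to 1.02, adjusted p = 0.302, n = 1763 members). There the short exons count the long one among their neighbours while a long exon is never its own neighbour. This comparison is therefore pushed down by construction, by an amount that was not computed.

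The other internal exons of host genes were longer too. In genes with at least 3 internal coding exons, those under 500 bases had a geometric mean length with a median of 119 bases in 1264 host genes and 105 bases in 6559 other genes. At equal number of internal exons the ratio was 1.17 (95% interval 1.15 to 1.19; the same kind of fit over genes, adjusted p = 6.33e-76 over 3 gene comparisons, n = 1264 host genes). Host genes had a median of 4.15 coding introns per kb of coding sequence, against 6.99 in the other genes, a value that the long exon lowers by itself.

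Members lay along the whole gene, with no shift towards either end that passed the test. Ordered by place among the internal exons of their own gene, from 0 at the 5' side to 1 at the 3' side, 1732 members in genes with at least 3 internal exons had a mean relative rank of 0.494 and the comparison exons 0.503. The difference of -0.0089 (95% interval -0.025 to 0.0069, adjusted p = 0.270 over the 12 comparisons, n = 1732 members) did not pass the threshold of 0.05, and its interval reaches a shift of -0.025 towards the 5' side. Members were somewhat more frequent at both ends of the internal series. The first of 5 equal parts of the series held 23.0% of them (95% Wilson interval 21.1 to 25.1%) and the last part 22.9% (21 to 24.96%), where even placement in their own genes would put 20.8% in each. The part before the last held 16.9% (15.2 to 18.8%), against 19.05% if even. Of these 1732 members, 230 (13.3%, 11.8 to 15.0%) were the very first internal exon of their gene. Another 230 were the very last, against 11.3% for 1 position if even. These shares were not tested.

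**Figure D3:**
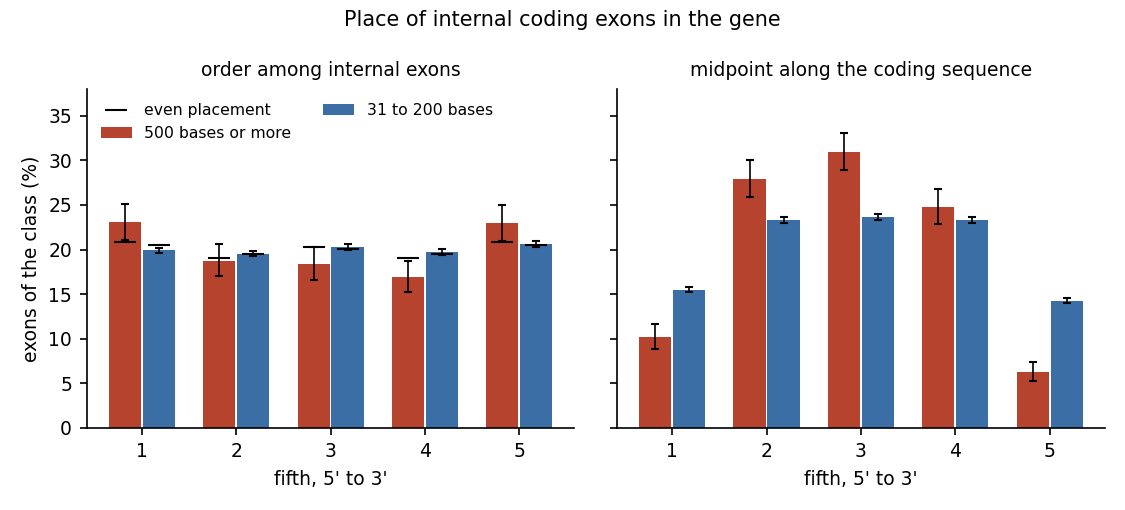
Share of exons (y axis, %) in each of 5 equal parts of the gene from 5' to 3' (x axis), by order among internal exons (left) and by midpoint along the coding sequence (right), for members in red and exons of 31 to 200 bases in blue, with 95% Wilson intervals as error bars and black dashes for even placement within the same genes. By order, members reach 23.0 and 22.9% in the outer parts, and by midpoint only 10.1 and 6.25%.

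Measured in bases, the picture is narrower by construction, since a long exon cannot have its midpoint near an end. The midpoint of a member lay at a median of 0.484 of the coding sequence (95% interval 0.466 to 0.499), against 0.495 in the comparison class. The first 20% of the coding sequence held 10.1% of member midpoints and the last 20% held 6.25%, against 15.5% and 14.3%.

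A single long exon supplied a large part of its coding sequence. The median share of the coding sequence made up by 1 member was 25.7% (95% interval 24.9 to 26.5%), against 5.71% for 1 comparison exon. The rule itself favours this contrast, since it picks members by length, so the shares are description only. All members of a gene together made up a median of 36.4% (34.7 to 37.8%, n = 1397 genes), with a 95th percentile of 70.4%. In 376 host genes (26.9%) they made up 50% or more, and in 188 (13.5%) under 20%. Among complete models with 1 member, the largest share was 93.7%, in g9425 (scaffold01211, exon at bases 1849517 to 1851843, plus strand), where 2327 bases lie between segments of 118 and 39 bases. It was 92.4% in g6790 (scaffold00992, bases 500167 to 501028, plus strand), 90.8% in g1747 (scaffold00143, bases 3588 to 4118, plus strand), 87.7% in g7597 (scaffold01012, bases 1652635 to 1653639, plus strand) and 85.8% in g689 (scaffold00052, bases 1182 to 2223, minus strand). Each of these 5 has 3 coding segments, and the smallest end segment measured 9 bases, in g689. Their exon scores were 0.60, 0.59, 0.99, 0.54 and 1.

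The introns before long exons were slightly shorter than those before exons of 31 to 200 bases. The upstream intron had a median of 194 bases (95% interval 191 to 197) and the downstream one 199 bases (196 to 202), against 210 and 211 bases beside exons of 31 to 200 bases. On log2 lengths the upstream intron was 0.944 times as long (95% interval 0.925 to 0.964, adjusted p = 9.76e-08, n = 1873 members), and shorter on 20 of 26 scaffolds. The downstream ratio of 0.973 (0.948 to 0.999, adjusted p = 0.0528, n = 1873 members) did not pass the threshold. Compared within the 1305 genes that hold both classes, the upstream ratio was 0.977 (0.953 to 1.00, adjusted p = 0.192) and the downstream ratio 1.01 (0.981 to 1.04, adjusted p = 0.528, n = 1763 members). The upstream call was therefore lost between exons of 1 gene, where 1763 members were compared with 12322 shorter exons. Upstream introns of similar length also stood before exons outside both classes. Their median was 195 bases before exons of 1 to 30 bases and 201 bases at 201 to 300. It was 194 bases at 301 to 400 and 201 bases from 401 bases to the threshold. Differences between these length classes were not tested.

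Very long introns were rare next to members. An upstream intron of 1000 bases or more preceded 1.98% of members (95% Wilson interval 1.44 to 2.71%), against 1.55% of comparison exons, and a downstream one followed 1.66% against 1.68%. Upstream introns under 120 bases preceded 6.03% (5.04 to 7.20%), against 4.18% (4.02 to 4.33%). The longest intron beside a member measured 5653 bases and followed an exon of 963 bases in g8016 (scaffold01082, bases 146461 to 147423, plus strand). Introns of 4196 and 3689 bases followed members in g4516 (scaffold00600, bases 275019 to 275745, minus strand) and g4218 (scaffold00557, bases 100990 to 102180, plus strand). The first and second of these exons and their introns were scored 1, and the intron in g4218 was scored 0.56.

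Among the phase measures tested, the difference that passed was an excess of exons with phase 1 on both sides. An exon with phase 1 introns on both sides was found in 10.9% of members, against 8.00% of comparison exons, a difference of 2.89 percentage points (95% interval 1.42 to 4.36, adjusted p = 0.000201, n = 1873 members) that was positive on 20 of 26 scaffolds. Within genes that hold both classes it was 2.69 points (0.768 to 4.61, adjusted p = 0.0259, n = 1763 members). Phase 1 was read at 29.1% of upstream and 32.3% of downstream introns of members, against 28.0% and 27.6%. From these shares alone, 9.40% of members and 7.72% of comparison exons would have phase 1 on both sides if the sides were independent. Among the 621 members of 500 to 599 bases the share was only 8.70% (standard error 1.32 points). The higher shares lay at 600 to 749 (12.4%), 750 to 999 (11.8%) and 1000 to 1499 bases (12.4%). From 1500 bases it was 9.09% (standard error 2.82 points). Below the threshold it was 8.64% at 201 to 300, 9.26% at 301 to 400 and 9.34% from 401 bases. Differences between these length classes were not tested.

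No difference passed the threshold for the other phase measures that were tested. Phase 0 was found at 48.5% of upstream introns of members against 49.98% (difference -1.50 points, 95% interval -3.77 to 0.765, adjusted p = 0.211, n = 1873 members), and at 47.7% of downstream introns against 50.1% (-2.40 points, -4.65 to -0.150, adjusted p = 0.0528). Symmetric exons made up 39.9% of members and 38.4% of comparison exons, a difference of 1.56 points (-0.685 to 3.80, adjusted p = 0.208, n = 1873 members). The most frequent pair of phases was 0 on both sides in either class, with 24.2% of members and 25.3% of comparison exons.

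**Figure D4:**
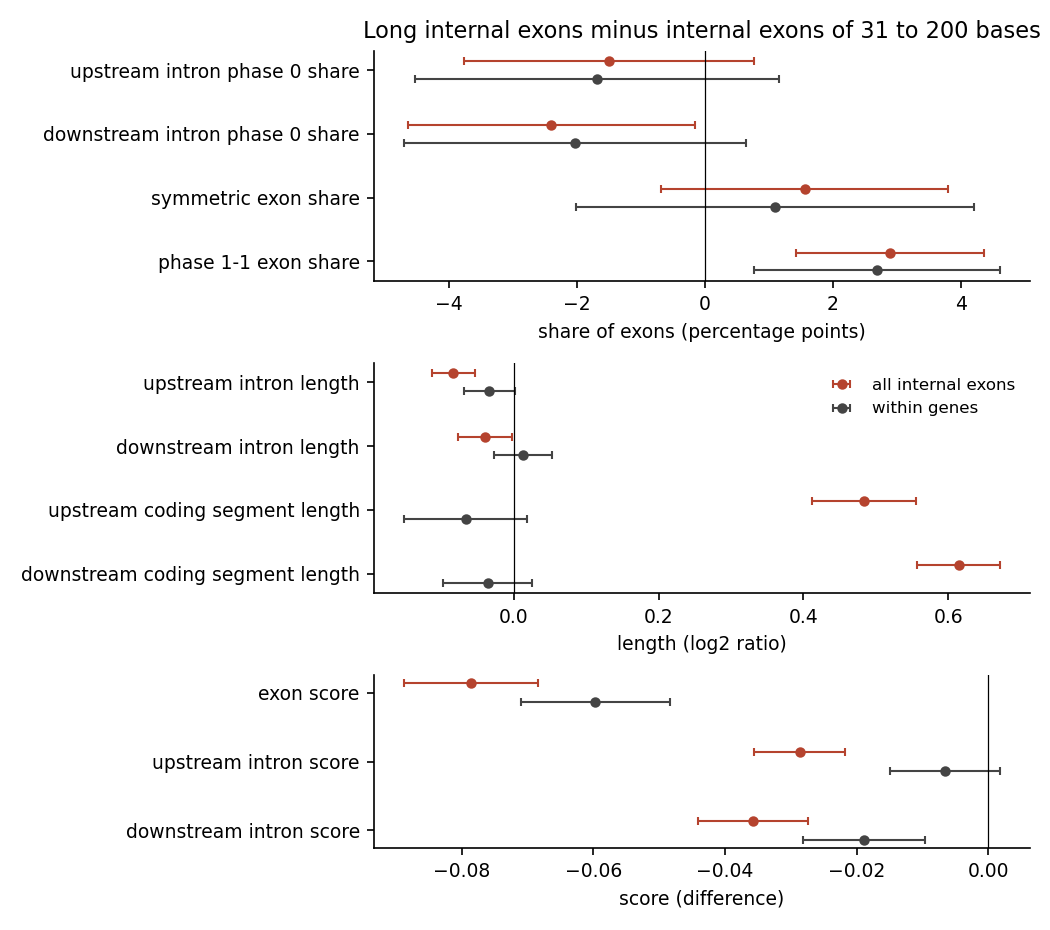
Long internal exons minus internal exons of 31 to 200 bases, as points with 95% intervals clustered by scaffold, for shares in percentage points (top), log2 ratios of length (middle) and differences of score (bottom), over all internal exons in red and within genes that hold both classes in grey. The intervals of the phase 1-1 share, the exon score and the downstream intron score exclude 0 in both fits.

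AUGUSTUS scored long exons lower than the comparison exons on average. The score is deposited without a description, and a few values lie above 1 (3 members and 217 comparison exons), so it is compared as a relative value and not read as a probability. Its mean was 0.880 ± 0.192 (SD, n = 1873) in members and 0.959 ± 0.140 (SD, n = 63987) in comparison exons, a difference of -0.079 (95% interval -0.089 to -0.068, adjusted p = 1.70e-46) that was negative on 25 of 26 scaffolds. Within genes it was -0.060 (-0.071 to -0.048, adjusted p = 1.30e-17, n = 1763 members). Low means were not particular to members, since exons of 1 to 30 bases had a mean score of 0.877. The mean was 0.896 from 401 bases to the threshold and 0.898 at 500 to 599 bases. Differences between these length classes were not tested. A score of 1 or more was given to 39.7% of members (95% Wilson interval 37.5 to 41.9%) and 74.5% of comparison exons (74.1 to 74.8%), and a score under 0.5 to 6.78% and 2.28%.

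The flanking introns were scored lower beside long exons as well, by less. The mean upstream score was 0.928 against 0.957 (difference -0.029, 95% interval -0.036 to -0.022, adjusted p = 2.28e-15, n = 1873 members), and the mean downstream score 0.924 against 0.960 (-0.036, -0.044 to -0.027, adjusted p = 4.86e-16). Within genes the downstream difference was -0.019 (-0.028 to -0.0097, adjusted p = 0.000532, n = 1763 members) and the upstream difference -0.0066 (-0.015 to 0.0017, adjusted p = 0.230). Beside exons of 1 to 30 bases the mean upstream and downstream scores were lower still, at 0.887 and 0.880. Beside exons of 301 to 400 bases they were 0.922 and 0.928.

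Some long exons scored well below both of their introns, which short exons almost never did. The exon score was below the lower of the flanking intron scores in 24.3% of members (455 of 1873), equal to it in 45.5% and above it in 30.2%, against 1.00%, 76.9% and 22.0% of comparison exons. The exon score was at least 0.2 below the lower of the flanking intron scores in 91 of 1873 members (4.86%, 95% Wilson interval 3.97 to 5.93%), in 87 genes, and in 6 of 63987 comparison exons (0.00938%, 0.00430 to 0.0205%). Among the comparison exons of the host genes themselves it was 1 of 12322. At least 1 such member lay on 25 of the 26 scaffolds with at least 20 members. All 91 were in complete models, as were 96.2% of all members (1802 of 1873). Where both introns were scored 1 or more, the exon fell under 1 in 186 of 761 members (24.4%, 21.5 to 27.6%) and in 14 of 40961 comparison exons (0.0342%). The share of exons at least 0.2 below their introns was 0.218% at 201 to 300 bases, 1.07% at 301 to 400, 2.12% from 401 bases to the threshold, 3.86% at 500 to 599, 4.39% at 600 to 749, 5.88% at 750 to 999, 5.22% at 1000 to 1499 and 9.09% (8 of 88, 4.68 to 16.9%) from 1500 bases. This measure was chosen after the scores had been seen and was not tested. A comparison exon, with a median of 100 bases, has little room for an intron inside it. The introns upstream of that class had a 5th percentile of 123 bases. Whether the contrast between the classes follows from exon length alone was not tested.

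**Figure D5:**
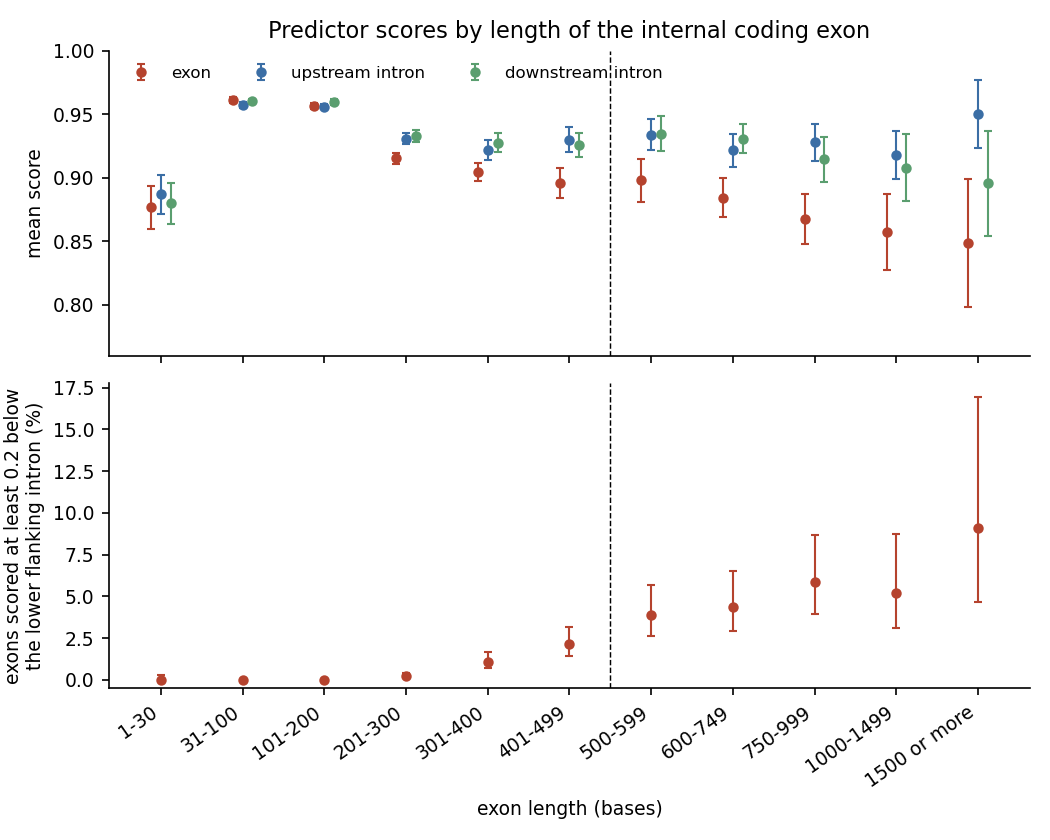
Mean AUGUSTUS score (top, y axis from 0.76) of the exon and of its upstream and downstream introns, and share of exons scored at least 0.2 below the lower flanking intron (bottom, %), by length class of the internal coding exon in bases (x axis). Error bars are 1.96 standard errors clustered by scaffold (top) and 95% Wilson intervals (bottom), the dashed line is the 500 base threshold, and the share is 0.218% at 201 to 300 bases, 3.86 to 5.88% between 500 and 1499 bases and 9.09% from 1500 bases.

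Low scores of single exons took more than 1 form. The widest gaps, named after their values were seen, belonged to g4787 (768 bases, scaffold00629, bases 1207495 to 1208262, plus strand) and g2254 (733 bases, scaffold00243, bases 240141 to 240873, minus strand), each scored 0.26 between introns scored 1. The exon of 723 bases in g7263 (scaffold01003, bases 1571713 to 1572435, plus strand) was scored 0.27, and one of 1702 bases in g1272 (segment 66) was scored 0.33, again between introns scored 1. The 3 lowest scores of all were close to that of a flanking intron. Model g6632 held a member of 776 bases scored 0.04 (scaffold00961, bases 324362 to 325137, plus strand), before an intron also scored 0.04. The member of 500 bases in g3202 was scored 0.06 after an intron scored 0.07, and that of 513 bases in g4704 (scaffold00629, bases 682278 to 682790, plus strand) was scored 0.11 after an intron scored 0.11. In g3057 (738 bases, scaffold00366, bases 1646164 to 1646901, minus strand) the exon was scored 0.13 and its introns 0.43 and 0.53, and the exon of 676 bases at segment 30 of g10133 was also scored 0.13, between introns scored 0.19 and 0.86.

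Host gene models were more often complete and had lower gene scores. In genes with at least 3 internal exons, 96.0% of 1265 host genes had both a start and a stop codon, against 88.5% of 6559 others. At equal number of internal exons the difference was 3.56 percentage points (95% interval 1.88 to 5.23, adjusted p = 3.54e-05 over the 3 gene comparisons, n = 1265 host genes). On scaffolds with an annotated span of at least 100 kb, where 95.5% of members and 93.0% of comparison exons lay, it was 0.370 points (adjusted p = 0.0290, n = 1206 host genes). The mean gene score was 0.115 in host genes and 0.180 in the others, a difference of -0.039 at equal number of internal exons (-0.049 to -0.029, adjusted p = 1.03e-13, n = 1265 host genes).

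Long internal exons were not confined to a few scaffolds, though most scaffolds held none. They lay on 136 of the 1150 scaffolds with an internal coding exon and in near equal numbers on the strands, with 925 on the plus strand. The scaffolds with the most were scaffold00366 with 145, scaffold01012 with 122 and scaffold00012 with 103, at 2.79, 2.67 and 2.64% of their internal exons. Over the 26 scaffolds with at least 20 members, which held 1464 in all, the share had a median of 2.69%. It ran from 1.78% on scaffold01168 (45 of 2524, 95% Wilson interval 1.34 to 2.38%) to 4.56% on scaffold00132 (35 of 767, 95% Wilson interval 3.30 to 6.28%), intervals that do not overlap. These extremes were picked from 26 after their values were seen. The next neighbour of a host gene was itself a host in 17.1% of cases (432 of 2532, 95% Wilson interval 15.6 to 18.6%). For the next neighbour of another gene it was 15.2% (2100 of 13850, 14.6 to 15.8%). Neighbouring genes were counted from both sides, while these intervals treat the cases as independent, so they are too narrow. The difference was not tested.

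A few nearby genes held long exons of equal length. Of 638 pairs of host genes at most 3 genes apart, 2 pairs shared a member of equal length. Among all pairs of members, counted as exons and not as genes, 0.195% have equal lengths. A pair of genes can hold several pairs of members, so these values are not directly comparable. Whether nearby genes differ from others in this was not tested. The exons of 567 bases in the direct neighbours g6811 (scaffold00992, bases 634634 to 635200, plus strand) and g6812 (bases 658478 to 659044, plus strand) matched in their surroundings too. In both, a segment of 153 bases, an intron of 200 bases and phase 0 came before, and phase 0 and a segment of 39 bases came after, with downstream introns of 229 and 228 bases. The exons of 504 bases in g3245 (scaffold00366, bases 2672609 to 2673112, minus strand) and g3248 (bases 2699484 to 2699987, plus strand) shared phase 0 on both sides, while the segments beside them measured 108 and 181 bases in the former and 169 and 71 bases in the latter.

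More than 1 transcript was predicted for 29 of the 1397 host genes (2.08%, 95% Wilson interval 1.45 to 2.97%), with 38 members, and for 162 of all 10284 genes (1.58%). Set against each other transcript of the gene, which gave 39 pairs, the exon was present with the same ends in 21, overlapped a coding segment with other ends in 6 and had no coding segment in its place in 12. In 0 of the 39 was there an intron inside the long exon, and in 0 was it skipped by an intron that spanned it, so none of these predictions shows the exon spliced internally or left out as a cassette.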

How the data were processed

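The series measured messenger RNA in 18 libraries, with TopHat 1.3.3 and Cufflinks named in the submitters' processing notes. Expression values were not analysed here. The authors deposited gene models for the whole series, whose source column names AUGUSTUS. For its version, settings and evidence, and for the assembly version, the labels and the file give nothing. Coordinates count from 1, and the deposited score has no description. Introns were the gaps between coding segments, and their phase was read from the coding segment that follows. Exons of 500 bases or more were compared with those of 31 to 200 bases by least squares, with standard errors clustered by scaffold and two-sided Wald tests, adjusted by Benjamini-Hochberg over 12 exon and 3 gene comparisons (threshold 0.05). Within-gene fits centred values on the gene. Relative rank used genes with at least 3 internal exons. Intervals cover the spread within this annotation and no error of assembly or prediction. Named exons are the extremes in length, score, share of the coding sequence, flanking intron, number per gene, closeness to the threshold and equal length in nearby genes. The members and lists were chosen with earlier results of these data known. Python 3.11.15, NumPy 2.4.6, pandas 2.3.3 and SciPy 1.17.1 were used, and the fits were tested on simulated data. The alternatives changed the length threshold, comparison class, models, scaffolds, transcripts, scores, members per gene, introns and covariates.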

Additional observations from a re-analysis of the deposited data

How the results depend on the processing

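Of 189 values under the alternatives, 169 led to no other call or direction, or stayed within the main interval. Within genes, the upstream intron length (-0.033 log2) and upstream intron score (-0.0066) lost their calls. In the same fits the downstream intron length (0.013), upstream segment length (-0.066) and downstream segment length (-0.036) changed sign without a call. For the segments the construction given above lowers the value by an amount that was not computed. The cause of these changes was not tested. The downstream intron length passed the threshold at 750 bases (-0.066 log2), against all exons from 31 bases to the threshold (-0.041), at an exon score of at least 0.95 (-0.072), without scaffold00366 (-0.044), with covariates (-0.043), with introns of 30 to 2000 bases (-0.042) and without scores above 1 (-0.040). The downstream phase 0 share passed at 400 bases (-2.76 points), at 750 bases (-4.34), with covariates (-2.49), with introns of 30 to 2000 bases (-2.66) and without scores above 1 (-2.50). The upstream phase 0 share passed at 400 bases (-1.78) and at an exon score of at least 0.95 (-2.80). These calls near the threshold should be read as undecided. At that score, members made up 1.84% of internal exons, since fewer long exons reach it, and the differences in exon, upstream and downstream intron score shrank to -0.0071, -0.0084 and -0.0072, as that setting limits the exon score itself. The excess of complete host models was 7.56 points without adjustment for exon number. The phase 1-1 difference ranged from 2.29 to 3.67 points and passed in all 14 alternatives. Leaving out scores above 1, or genes with 5 or more members, was chosen after seeing the data. No paired analysis was possible because these are models of the whole series, with no value for any library.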
